A study of Arabidopsis thaliana with 15 samples.

Results

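The 8 genes described here are the cellulose synthase catalytic subunits CESA1, CESA2, CESA3, CESA5 and CESA6, which work in the primary cell wall, and CESA4, CESA7 and CESA8, which work in the secondary cell wall, of Arabidopsis thaliana. They were taken by gene identifier from the 37361 genes counted, and all 8 were among the 21456 genes that passed the filter on low counts. The study profiled poly(A) RNA of 12-day-old Col-0 seedlings, the same ecotype in every group, in 15 libraries that form 5 groups of 3. In NAD-seq, RNA capped with NAD+ rather than m7G is given a biotin handle and pulled down on streptavidin beads. The click reaction that adds biotin needs no copper in SPAAC and is catalysed by copper in CuAAC. Mock SPAAC and mock CuAAC were made from RNA that went through the depletion step without antibody, m7G-depleted SPAAC and m7G-depleted CuAAC from RNA from which an anti-m7G antibody had removed capped RNA, and mock mRNA-seq from the mock RNA with no capture. E. coli tRNA was added as carrier to the captured groups. No enzyme-free control library was analysed here, so captured reads can include untagged RNA.

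Cellulose is made at the plasma membrane by a rosette-shaped complex of CESA proteins, which joins glucose from UDP-glucose into chains that crystallise into microfibrils. In growing cells the complex holds CESA1, CESA3 and a subunit of the CESA6 class, to which CESA2 and CESA5 belong. In xylem vessels and fibres, which lay down a thick wall after growth, it holds CESA4, CESA7 and CESA8, and mutants of these genes have collapsed (irregular) xylem. NAD+ can take the place of ATP as the first nucleotide of a transcript, so an NAD cap is known on RNA that begins with A.

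The first bases of each gene are shown because the cap, m7G or NAD, sits on the first transcribed nucleotide. Each line gives the 40 bases before the annotated start and the first 10 transcribed bases, on the gene's own strand, read from the TAIR10.1 genome, with the annotated first nucleotide in capitals.
CESA1: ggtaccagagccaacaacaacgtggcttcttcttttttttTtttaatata
CESA2: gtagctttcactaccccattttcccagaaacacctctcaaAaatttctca
CESA3: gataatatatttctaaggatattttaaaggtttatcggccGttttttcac
CESA5: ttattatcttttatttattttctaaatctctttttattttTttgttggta
CESA6: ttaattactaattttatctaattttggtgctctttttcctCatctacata
CESA4: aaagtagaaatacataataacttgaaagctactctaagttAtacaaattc
CESA7: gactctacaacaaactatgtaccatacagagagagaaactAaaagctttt
CESA8: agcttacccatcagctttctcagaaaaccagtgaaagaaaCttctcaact
These windows lie at chr4:15646835-15646884 on the minus strand for CESA1, chr4:18296348-18296397 on the plus strand for CESA2 and chr5:1535549-1535598 on the minus strand for CESA3. They lie at chr5:3072830-3072879 for CESA5, chr5:25880993-25881042 for CESA6 and chr5:17714350-17714399 for CESA4, all on the plus strand. Those of CESA7 and CESA8 lie on the minus strand at chr5:5741491-5741540 and chr4:10316877-10316926. The annotated first base was A in 3 of the 8 genes, CESA2, CESA4 and CESA7, against 35.6% of the 19711 tested nuclear coding genes. The annotated base was T in CESA1 and CESA5, C in CESA6 and CESA8, and G in CESA3. The annotation gives the outermost start, and the starts used in these seedlings were not measured. The TATA box letters TATAAA, searched on the gene's strand from -50 to -16, were in none of the 8 windows and in 8.06% of all tested nuclear coding genes.

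The genes sit on chromosomes 4 and 5 (TAIR10.1). CESA1 (AT4G32410) spans chr4:15640490-15646844 with 4221 nt of exon, CESA2 (AT4G39350) chr4:18296388-18302192 with 4247 nt and CESA3 (AT5G05170, also CEV1) chr5:1530132-1535558 with 3825 nt. CESA5 (AT5G09870) spans chr5:3072870-3078416 with 4138 nt and CESA6 (AT5G64740) chr5:25881033-25886728 with 4172 nt. CESA4 (AT5G44030) spans chr5:17714390-17719723 with 3771 nt, CESA7 (AT5G17420, also IRX3) chr5:5736630-5741500 with 3403 nt and CESA8 (AT4G18780, also IRX1) chr4:10312624-10316886 with 3347 nt. Each gene has 11 to 15 exon blocks, over which counts were summed. CESA5 and CESA6 are the closest pair, with 81.8% identity over 3993 aligned exon bases, and every other pair lies between 67.3% and 75.5%. The longest stretch that any pair shares exactly is 50 bases, in an exon of CESA5 at chr5:3076028-3076077 and of CESA6 at chr5:25884373-25884422, both on the plus strand, and it is shown because reads inside it cannot be assigned to either gene.
Shared by CESA5 and CESA6: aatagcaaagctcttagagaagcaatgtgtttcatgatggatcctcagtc
Of all runs of 50 bases, 1 in CESA5 and 1 in CESA6 occur in another of the 8 genes, and none in the remaining 6 genes.

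Of 1877 overlapping opposite-strand gene pairs, each gene with over 1000 counts summed over the libraries, 29 had identical counts in all 15 libraries. No source used here names the strand setting. Reads in an exon that a CESA gene shares with an opposite-strand neighbour may thus have been counted for either gene or for both. CESA8 shares 481 exon bases with MYB98 (AT4G18770), which had group means of 0.160 to 1.61 CPM and at most 35 counts in a library, and 81 bases with the non-coding gene AT4G06845, which had at most 1. CESA4 shares 17 bases with AT5G44020 on its own strand, which was far more abundant (group means of 428 to 919 CPM), and 65 with AT5G44040. CESA7 shares 66 bases with AT5G17410, whose group means (9.82 to 21.6 CPM) were above its own. CESA3 shares 74 bases with RUL1 and CESA1 shares 28 with SHS1, and no exon overlap was annotated for CESA2, CESA5 or CESA6.

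The uncaptured libraries held 3806556 to 9097552 counts each and the captured ones 6242770 to 19798778, with mock SPAAC deepest and m7G-depleted CuAAC shallowest among the latter. The seedling label was checked against marker genes. The 4 shoot markers, led by CAB1 and RBCS1A, had between 1587 and 30539 CPM in mock mRNA-seq, and the 3 root markers had 18.7 CPM (CASP1) to 1222 CPM (PYK10). The xylem proteases XCP2 and XCP1 had 27.2 ± 4.02 and 9.09 ± 2.37 CPM (SD, n = 3), while the vessel regulators VND7 and VND6 stood at 0.365 and 0.566 CPM. Of the 4 pollen and seed markers, CSLD1 and CSLD4 were at 0 in mock mRNA-seq, and CRU3 and OLEO1 at 0.0549 and 0.195 CPM.

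In uncaptured RNA the primary wall genes were far above the secondary wall genes. Per kilobase of exon, the scale on which genes are compared, CESA3 was highest in mock mRNA-seq at 111 ± 7.08 CPM per kb (SD, n = 3), followed by CESA1 at 86.5 ± 2.85, CESA6 at 45.8 ± 2.91, CESA2 at 27.4 ± 2.45 and CESA5 at 17.1 ± 1.25. The libraries of neighbours in this order did not overlap. CESA4 followed at 3.04 ± 0.577 CPM per kb, then CESA7 at 1.78 ± 0.220 and CESA8 at 1.53 ± 0.512, and the last pair overlapped. Those secondary wall levels rest on 12 to 61 counts per library. Whether few cells made the secondary wall transcripts or many cells made little of them cannot be told apart in whole seedlings.

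In all 4 captured groups the order of the leading pair was the reverse. CESA1 stood at 99.3 ± 4.65 CPM per kb in mock SPAAC against 71.5 ± 4.00 for CESA3, and at 58.1 ± 2.90 against 39.3 ± 1.16 in mock CuAAC. After m7G depletion CESA1 had 219 ± 5.33 CPM per kb in SPAAC and 118 ± 5.94 in CuAAC, and CESA3 148 ± 5.67 and 80.7 ± 4.498. CESA6 came next in every group. CESA2 stood above CESA5 in the mock groups (18.2 ± 1.10 against 15.5 ± 0.808 CPM per kb in mock SPAAC, and 10.6 ± 0.354 against 9.79 ± 0.110 in mock CuAAC). CESA5 stood above CESA2 in m7G-depleted SPAAC, at 37.7 ± 0.512 against 32.3 ± 0.818, and in m7G-depleted CuAAC the pair overlapped, at 21.7 ± 2.80 and 18.9 ± 1.97. CESA4 had the highest mean of the secondary wall genes in every group, overlapping CESA8 in m7G-depleted CuAAC, and CESA7 and CESA8 overlapped in every group.

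**Figure D1:**
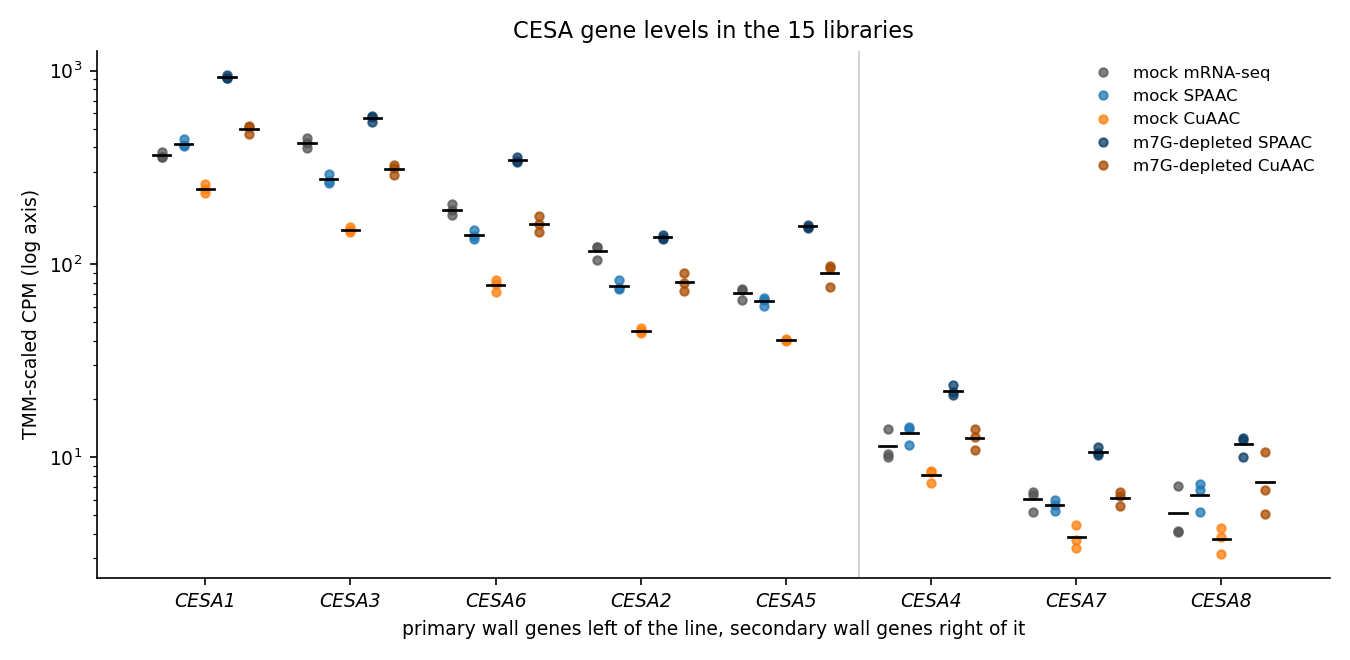
Level of each CESA gene in each of the 15 libraries, as TMM-scaled CPM on a log axis, with a point per library, a bar at the mean of 3 and colours for the 5 groups. Every secondary wall gene lies below every primary wall gene, and the mean of each gene is highest in m7G-depleted SPAAC.

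The make-up of the family can be read within each library, where the scaling between libraries plays no part. Of the summed CPM per kb of the 8 genes, CESA3 held 37.7 ± 1.34% and CESA1 29.5 ± 1.41% in mock mRNA-seq (SD, n = 3). CESA1 held between 40.4% and 41.4% in the 4 captured groups, and CESA3 between 27.8% and 29.1%. CESA2 went from 9.33 ± 0.851% in mock mRNA-seq to 7.41 ± 0.128% in mock SPAAC and 6.07 ± 0.149% in m7G-depleted SPAAC. CESA6 held 13.2% to 15.6% and CESA5 5.82% to 7.58% over the 5 groups. The secondary wall genes together held 2.17 ± 0.460% in mock mRNA-seq, against 2.89 ± 0.305% (SPAAC) and 3.13 ± 0.280% (CuAAC) in the mock captures and 2.34 ± 0.101% (SPAAC) and 2.58 ± 0.195% (CuAAC) after depletion. The mRNA-seq libraries (1.82% to 2.69%) overlapped those of mock SPAAC (2.62% to 3.22%) and lay below those of mock CuAAC (2.96% to 3.45%).

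**Figure D2:**
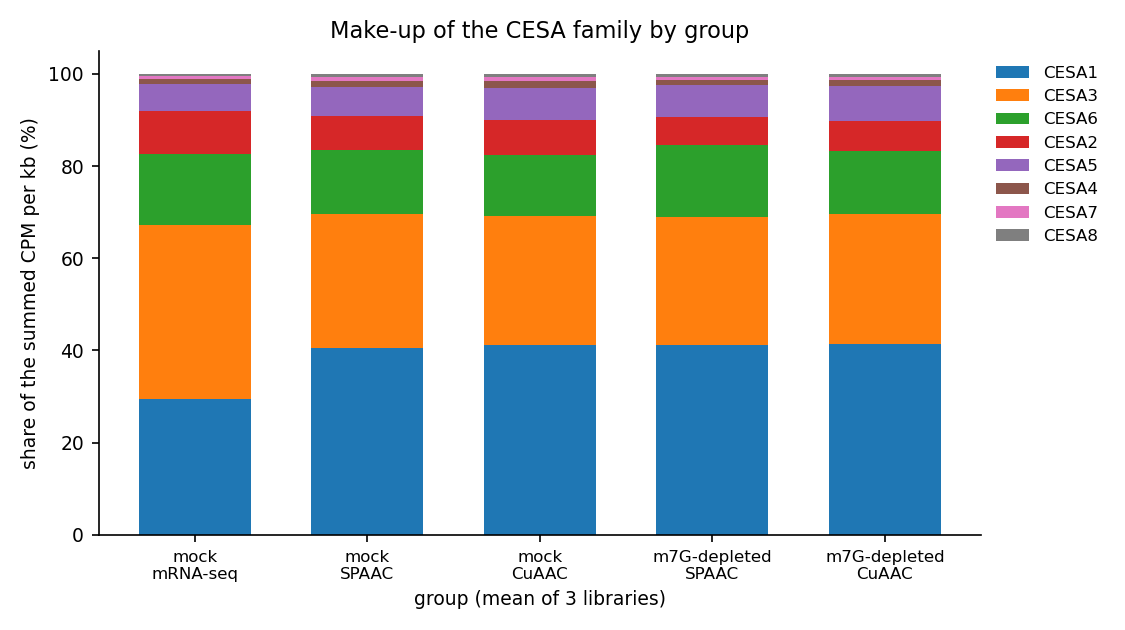
Share of each gene in the summed CPM per kb of the 8 CESA genes, as the mean of 3 libraries per group, with 1 stacked bar per group. The CESA1 segment is 29.5% in mock mRNA-seq and 40.4% to 41.4% in the captured groups.

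Ratios of read counts between members show the same shift library by library. They were chosen after the values were seen and carry no test. CESA1 reads numbered 0.796 to 0.904 per CESA3 read in the 3 mock mRNA-seq libraries, and 1.51 to 1.57 in mock SPAAC and 1.59 to 1.66 in mock CuAAC. After depletion they numbered 1.57 to 1.68 per CESA3 read in SPAAC and 1.496 to 1.75 in CuAAC. All 12 captured libraries lay above all 3 uncaptured ones. CESA5 reads per CESA2 read averaged 0.614 ± 0.0878 in mock mRNA-seq, 0.834 ± 0.0903 in mock SPAAC and 0.900 ± 0.0351 in mock CuAAC, then 1.14 ± 0.0217 in SPAAC after depletion and 1.11 ± 0.0747 in CuAAC after depletion, so this ratio was lowest without capture and highest after depletion, with no overlap between the mock and the depleted libraries. CESA6 reads per CESA2 read averaged 1.64 ± 0.0872, 1.83 ± 0.0406, 1.73 ± 0.112, 2.51 ± 0.0976 and 2.00 ± 0.0160 in the same order of groups. This ratio was higher in every depleted library than in every mock library.

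**Figure D3:**
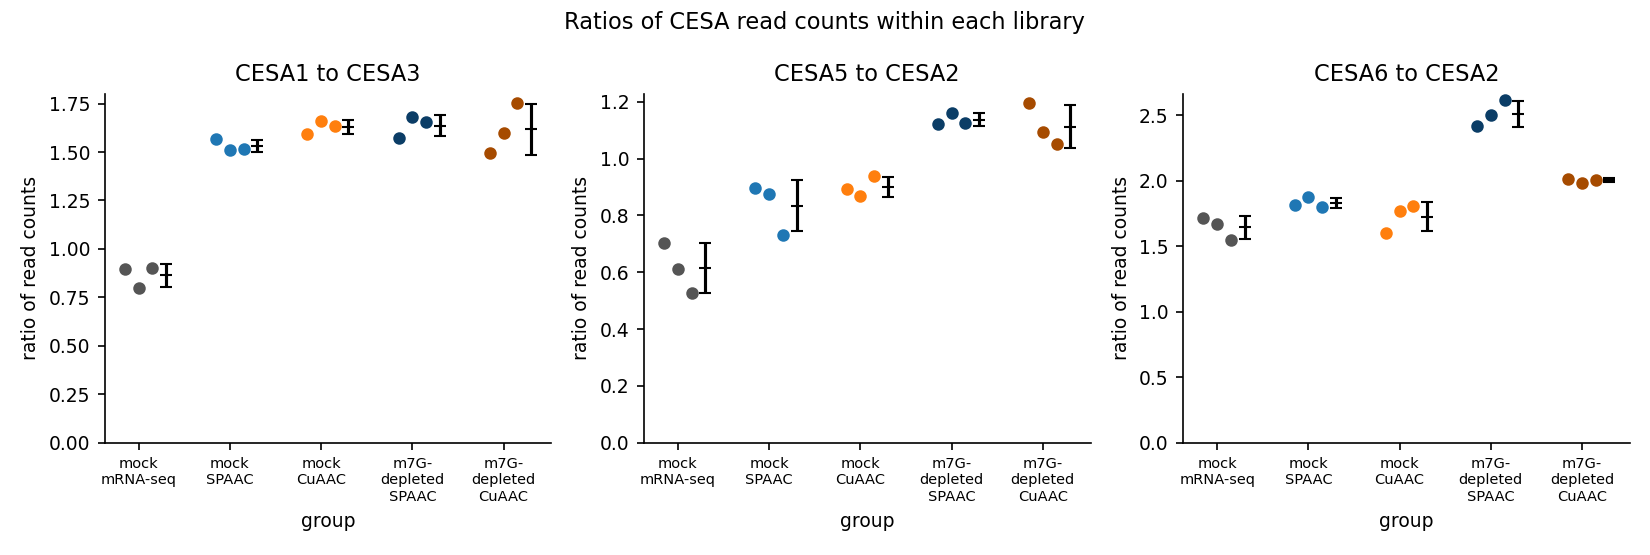
Ratio of read counts between CESA genes within each library, from 0 upward, with a point per library and the mean with its SD (n = 3) beside the points of each group. CESA1 to CESA3 is at most 0.904 in mock mRNA-seq and at least 1.496 in the captured libraries.

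Mock SPAAC was set against mock mRNA-seq to find transcripts that the copper-free capture enriches. A gene is said to pass the test when its Benjamini-Hochberg adjusted p in edgeR's quasi-likelihood test was under 0.05 over all 21456 genes, and to be called when its level also differed by at least 2-fold. None of the 8 CESA genes was called, against 1.90% of all genes called higher and 5.17% called lower. Without reaching 2-fold, 4 of the 8 passed the test, against 32.4% of all genes in either direction, and they did not all move the same way. In DESeq2 3 of the 8 passed, all but CESA1. CESA1 had 379, 358 and 358 CPM in mock mRNA-seq and 411, 406 and 442 CPM in mock SPAAC, so every captured library was above every uncaptured one. Its log2 fold change was 0.20 ± 0.07 (SE; adjusted p = 0.0438), which did not pass in DESeq2 (adjusted p = 0.0577), with the compared groups alone (adjusted p = 0.312) or in 5 of the 6 fits without 1 of these libraries (adjusted p from 0.0657 to 0.153). It passed without mock SPAAC replicate 2 (adjusted p = 0.0457 in edgeR). CESA3, its partner in the primary wall complex, had 424, 450 and 396 CPM in mock mRNA-seq and 262, 268 and 291 CPM in mock SPAAC. The groups did not overlap and its log2 fold change was -0.63 ± 0.08 (adjusted p = 1.75e-06). CESA2 (-0.59 ± 0.09) and CESA6 (-0.43 ± 0.09) also passed as lower, and all 3 of these turned above 0 with library totals. CESA5 (-0.14 ± 0.09), CESA7 (-0.13 ± 0.18), CESA4 (0.21 ± 0.16) and CESA8 (0.32 ± 0.27) did not pass. When library totals replaced TMM, the median of all genes moved from 0.07 to 0.80. CESA2, CESA3 and CESA6 turned to 0.13, 0.08 and 0.28, below that median, and CESA1 (0.91) was above it. This scaling shifts all genes nearly alike, so it cannot test the order of genes or their side of the median. CESA5 and CESA7 turned to 0.57 and 0.60, and CESA8, at 1.06, was called. With exon length and GC content as offsets the values were close to those above, at 0.21 for CESA1 and -0.62 for CESA3. CESA1 thus stood above CESA3 in the fit with offsets as well.

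Mock CuAAC held the lowest mean level of every CESA gene among the 5 groups, though CESA1, CESA4 and CESA8 lay slightly above mock mRNA-seq with library totals (0.02, 0.11 and 0.17). Against mock mRNA-seq 3 of the 8 genes were called lower and none higher, beside 11.2% of all genes called lower and 5.09% called higher. They were CESA2, CESA3 and CESA6. CESA3 had 147, 155 and 149 CPM in mock CuAAC, below the lowest mock mRNA-seq library at 396 CPM, and its log2 fold change was -1.49 ± 0.08 (adjusted p = 4.53e-12). CESA2 had 44.9, 46.6 and 43.6 CPM against 104, 122 and 123 CPM, and its log2 fold change was -1.36 ± 0.09. CESA6 had 71.8, 82.5 and 79.0 CPM against 179, 203 and 190 CPM, with -1.29 ± 0.09. The groups did not overlap, with mock CuAAC lower, for any CESA gene but CESA8, against 27.0% of all genes in that direction. CESA5 (-0.81 ± 0.10), CESA7 (-0.69 ± 0.19), CESA1 (-0.58 ± 0.07) and CESA4 (-0.50 ± 0.16) passed the test as lower without reaching 2-fold, though CESA5, CESA1 and CESA4 turned above 0 with length and GC offsets, and CESA8 (-0.45 ± 0.29) did not pass. The 7 that passed as lower compare with 24.4% of all genes. This comparison shares its mRNA-seq libraries with the one above. Exon length moved with these values: the median log2 fold change was -0.75 for the CESA genes, 0.01 for all tested genes and -0.64 for the 2151 nuclear coding genes with 3000 to 5000 nt of exon. With length and GC offsets none was called, CESA3 stood at -0.74, CESA2 at -0.49 and CESA6 at -0.44, and CESA1 turned to 0.26 (adjusted p = 0.00656 in edgeR). CESA5, CESA4 and CESA8 turned to 0.04, 0.22 and 0.15 and did not pass. With library totals, where the median of all genes was 0.62, CESA3, CESA2 and CESA6 stood at -0.90, -0.76 and -0.70 and none was called.

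Between the capture chemistries on mock RNA, every CESA gene was higher in SPAAC than in CuAAC, though 5 of the 8 fell below 0 with exon length and GC offsets, and none differed by 2-fold. All 8 passed the test, with log2 fold changes from 0.56 ± 0.16 for CESA7 to 0.86 ± 0.08 for CESA3 and 0.86 ± 0.09 for CESA6, and no library of 1 chemistry overlapped the other for any gene. Of all genes, 21.5% passed as higher and 26.6% were higher with no overlap. None was called, against 6.47% of all genes called higher and 0.508% called lower. The spread among members was small. CESA1 had a log2 fold change of 0.77 ± 0.07, CESA2 0.78 ± 0.09, CESA8 0.77 ± 0.23, CESA4 0.72 ± 0.14 and CESA5 0.66 ± 0.09. Their median, 0.77, compares with -0.01 for all tested genes, 0.69 for nuclear coding genes with 3000 to 5000 nt of exon and -0.29 for those under 1500 nt. With length and GC offsets the 8 values lay between -0.14 (CESA5) and 0.16 (CESA8), below 0 for 5 of them, and none passed the test.

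Depletion of m7G-capped RNA before capture gave higher levels of all 8 genes in both chemistries, in TMM-scaled CPM, though CESA2 and CESA4 fell below 0 with exon length and GC offsets. In SPAAC 4 of the 8 were called higher and none lower, beside 7.37% of all genes called higher and 9.66% called lower. CESA1 had 917, 910 and 952 CPM after depletion against 411, 406 and 442 CPM, a log2 fold change of 1.14 ± 0.07 (adjusted p = 9.81e-11). CESA6, a CESA6-class subunit that gives the class its name, had 341, 335 and 357 CPM against 135, 140 and 149 CPM (1.29 ± 0.09). CESA5, which acts in part in place of CESA6 and in the seed coat, had 158, 156 and 154 CPM against 66.8, 65.4 and 60.4 CPM (1.28 ± 0.09). CESA3 had 582, 542 and 576 CPM against 262, 268 and 291 CPM (1.05 ± 0.08). The groups did not overlap for any of the 8 CESA genes, with the depleted libraries higher, against 31.4% of all genes in that direction. CESA2, the remaining CESA6-class gene of the 8, rose by 0.83 ± 0.09, CESA7 by 0.92 ± 0.15, CESA8 by 0.86 ± 0.21 and CESA4 by 0.74 ± 0.13, all past the test and short of 2-fold. All 8 CESA genes thus passed as higher, against 27.5% of all genes.

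In CuAAC the same 4 genes, CESA1 (1.02 ± 0.07), CESA3 (1.04 ± 0.08), CESA5 (1.14 ± 0.09) and CESA6 (1.05 ± 0.09), were called higher and none lower, beside 6.32% of all genes called higher and 8.24% called lower. CESA1 had 469, 516 and 508 CPM after depletion against 233, 258 and 244 CPM, and CESA5 had 95.1, 97.5 and 76.3 CPM against 40.05, 40.6 and 41.0 CPM. CESA8 had 5.06, 6.73 and 10.6 CPM against 3.16, 3.86 and 4.30 CPM, the widest spread of any member, and at 37 to 80 counts its log2 fold change of 1.00 ± 0.25 fell just short of the call. It was called by DESeq2, which called 5 CESA genes here, with library totals, and in 4 of the 6 fits that left out 1 of these libraries. CESA2 (0.83 ± 0.09), CESA7 (0.68 ± 0.18) and CESA4 (0.63 ± 0.15) passed the test without being called. All 8 passed as higher, against 24.3% of all genes. Several calls lie at the 2-fold limit. Without m7G-depleted CuAAC replicate 2 or without mock CuAAC replicate 1 the number called was 2, and in the fits that left out 1 library it ran from 2 to 5.

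Exon length moved with the depletion values as well. The median log2 fold change of the 8 genes was 0.98 in SPAAC and 1.01 in CuAAC, that of all tested genes -0.01 and 0.01, that of nuclear coding genes with 3000 to 5000 nt of exon 0.81 and 0.75, and that of genes under 1500 nt -0.56 and -0.50. With length and GC offsets no CESA gene was called. CESA1, CESA3, CESA5 and CESA6 still passed the test as higher, at 0.27, 0.25, 0.37 and 0.38 in SPAAC and 0.22, 0.31, 0.32 and 0.22 in CuAAC, whereas CESA2 (-0.11 and -0.02) and CESA4 (-0.05 and -0.09) turned below 0 and did not pass. CESA7 and CESA8 stayed above 0 in both chemistries.

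**Figure D4:**
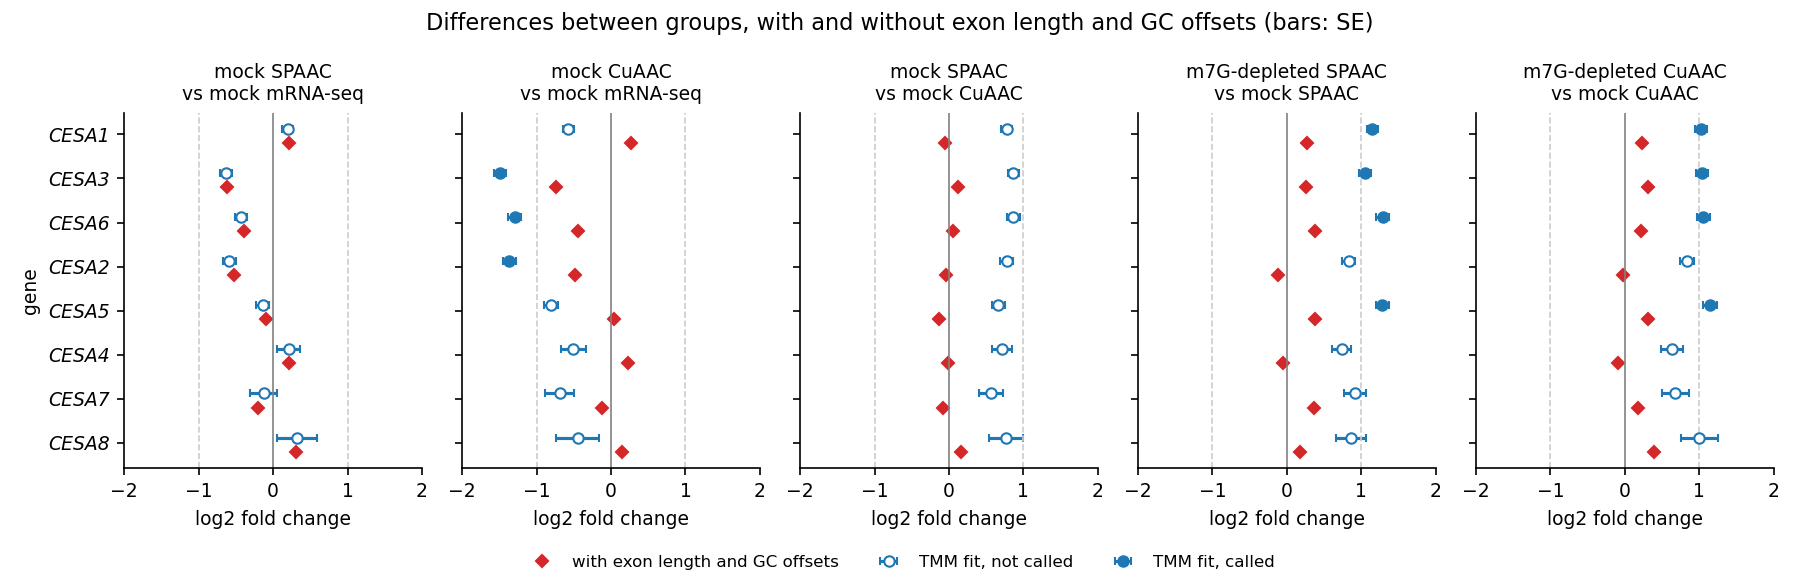
Log2 fold change of each CESA gene in 5 comparisons, as circles with SE bars from the TMM fit (filled where called) and as red diamonds from the fit with exon length and GC offsets. The dashed lines mark 2-fold. In the 3 panels on the right the diamonds lie near 0, between -0.14 and 0.40, and some fall below it, while in mock SPAAC against mock mRNA-seq circles and diamonds lie close together.

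Whether depletion acted differently on these genes in SPAAC and in CuAAC was tested directly. The difference of the log2 fold changes ran from -0.14 ± 0.32 for CESA8 to 0.24 ± 0.23 for CESA7, with 0.23 ± 0.12 for CESA6, 0.14 ± 0.13 for CESA5 and 0.12 ± 0.10 for CESA1. None of the 8 was called or had an unadjusted p under 0.05 in edgeR or in DESeq2, and of all genes 0.00466% were called. The standard errors leave room for differences of this size in either direction for CESA8 and CESA7.

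After depletion the chemistries differed in the same direction as before it. All 8 genes were higher in m7G-depleted SPAAC than in m7G-depleted CuAAC and passed the test, from 0.63 ± 0.23 (CESA8) to 1.10 ± 0.09 (CESA6), though 4 of the 8 fell below 0 with length and GC offsets. Of all genes, 21.7% passed as higher. CESA6 alone was called, beside 7.30% of all genes called higher and 0.895% called lower. Its libraries had 335 to 357 CPM in SPAAC and 146 to 177 CPM in CuAAC. With length and GC offsets CESA6 stood at 0.21 (adjusted p = 0.047), the other 7 lay between -0.13 and 0.11 and did not pass, and CESA1, CESA2, CESA5 and CESA8 were below 0.

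Set against uncaptured RNA, m7G-depleted SPAAC had higher levels of all 8 genes, 3 of which fell below 0 with length and GC offsets. CESA1 (1.34 ± 0.07), CESA8 (1.18 ± 0.26) and CESA5 (1.14 ± 0.09) were called higher and none lower, beside 10.9% of all genes called higher and 13.8% called lower. CESA1 rose from 358 to 379 CPM to 910 to 952 CPM, and CESA5 from 64.9 to 74.2 CPM to 154 to 158 CPM. CESA8, at 12 to 30 counts in mock mRNA-seq, went from 4.11, 4.16 and 7.11 CPM to 10.06, 12.3 and 12.5 CPM, and at 0.98 was not called without mock mRNA-seq replicate 1. CESA4 (0.95 ± 0.15), CESA6 (0.85 ± 0.09), CESA7 (0.79 ± 0.18), CESA3 (0.42 ± 0.08) and CESA2 (0.24 ± 0.09) passed the test short of 2-fold, so that all 8 passed as higher, against 29.4% of all genes. With library totals, where the median of all genes moved from 0.06 to 0.82, 7 were called, and with length and GC offsets none was and CESA2, CESA3 and CESA6 turned to -0.64, -0.37 and -0.01.

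In m7G-depleted CuAAC against mock mRNA-seq no CESA gene was called by edgeR or DESeq2, beside 5.39% of all genes called higher and 12.6% called lower. The members again parted. Of the 8 genes 5 passed the test, against 45.1% of all genes in either direction. CESA1 (0.45 ± 0.07) and CESA5 (0.34 ± 0.09) passed the test as higher, and CESA2 (-0.53 ± 0.09), CESA3 (-0.46 ± 0.08) and CESA6 (-0.24 ± 0.09) passed as lower, a split that the length and GC offsets left in place, at 0.49, 0.36, -0.51, -0.44 and -0.22. With library totals CESA2, CESA3 and CESA6 turned to 0.09, 0.16 and 0.38, all below the median of all genes, 0.61. Their side of the median is no test, since this scaling shifts all genes nearly alike. CESA4, CESA7 and CESA8 did not pass, at 0.12 ± 0.17, -0.01 ± 0.20 and 0.55 ± 0.29.

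On the TMM-scaled CPM scale, the 5 primary wall genes summed to 1167 ± 38.3 CPM (SD, n = 3) without capture, to 976 ± 42.5 CPM in mock SPAAC and 559 ± 23.1 CPM in mock CuAAC, and after depletion to 2131 ± 49.7 in SPAAC and 1138 ± 58.0 in CuAAC. The 3 secondary wall genes summed to 22.7 ± 4.2004, 25.3 ± 2.65, 15.7 ± 1.53, 44.4 ± 2.08 and 26.1 ± 1.52 CPM in the same order. Both sums were highest in m7G-depleted SPAAC and lowest in mock CuAAC, though with library totals the secondary wall sum was lowest in mock mRNA-seq, at 15.5 CPM. Without TMM scaling the primary wall genes took 0.0807 ± 0.00960% of counts in mock mRNA-seq and 0.110 ± 0.00669% in mock SPAAC, so the order of those groups depends on the scaling.

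How alike the members' patterns were was measured as the root mean square difference of log2 CPM over the 15 libraries, each gene centred on its mean. The closest pair was CESA2 and CESA3 (0.127), followed by CESA3 and CESA6 (0.146), CESA1 and CESA5 (0.156) and, among the secondary wall genes, CESA4 and CESA7 (0.177). CESA1 and CESA3, which share a complex, were 0.363 apart. Among 10427 other nuclear genes with at least 10 CPM, the nearest to CESA1 was PWD (0.0811), a kinase of starch breakdown, and the nearest to both CESA2 (0.0902) and CESA3 (0.0998) was SEX1, the glucan water dikinase that starts starch breakdown. GLDP2, a subunit of glycine decarboxylase, was nearest to CESA5 (0.0912), AT1G19720 to CESA6 (0.0793), NSH3 to CESA4 (0.122), ftsh9 to CESA7 (0.127) and FRS4 to CESA8 (0.221). The exons of these genes sum to 2969 to 5040 nt, and those of the CESA genes to 3347 to 4247 nt. Whether exon length goes with the likeness of the patterns was not tested. Each nearest gene was picked as the smallest of 10427 distances, so these values cannot be compared with those between members. The distances of the secondary wall genes also hold counting noise, at 12 to 61 counts per mock mRNA-seq library.

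Other genes of cellulose synthesis did not all go with the catalytic subunits. The listed genes were tested in the TMM fit alone. Of 10 listed accessory and related genes 9 were tested. CTL1, a chitinase-like protein needed for normal cellulose, had 510 ± 25.1 CPM in mock mRNA-seq and 1222 ± 80.3 in mock SPAAC, and was the 1 gene of the list called there (1.26 ± 0.09), beside 1.90% of all genes called higher. In mock CuAAC against mock mRNA-seq 1 was called higher, again CTL1 (1.55 ± 0.09), and 3 lower, beside 5.09% and 11.2% of all genes. CSI1, which links the cellulose synthase complex to microtubules, went from 195 ± 15.9 to 55.4 ± 6.54 CPM (-1.81 ± 0.10), and its relative CSI3 from 12.3 ± 1.70 to 3.79 ± 0.466 CPM (-1.68 ± 0.20). Both were called higher in mock SPAAC than in mock CuAAC, at 1.20 ± 0.10 and 1.26 ± 0.17, the only calls of the list there, beside 6.47% of all genes called higher. The family member CESA9, which is outside the 8 genes and was picked out with its values known, had 1.46 ± 1.03 CPM in mock mRNA-seq and 0.401 ± 0.115 in mock CuAAC and was called lower. After depletion 2 were called higher and none lower in each chemistry, CSI1 and CSI3, beside 7.37% of all genes called higher in SPAAC and 6.32% in CuAAC. The exons of CSI1 and CSI3 sum to 7205 and 7274 nt, and those of CTL1 to 1905 nt. The 306 nuclear coding genes with 5000 nt of exon or over had a median log2 fold change of -1.36 in mock CuAAC against mock mRNA-seq. Their median was 1.02 in mock SPAAC against mock CuAAC, and 1.31 (SPAAC) and 1.22 (CuAAC) for depletion.

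Among 25 tested cellulose synthase-like (CSL) genes, many of which make other wall glycans, the counts are read against the same shares of all genes. In that list 1 was called higher in mock SPAAC against mock mRNA-seq (1.90% of all genes). In mock CuAAC against mock mRNA-seq 1 was called higher (5.09%) and 2 lower (11.2%). CSLD2 and CSLD3, which act in tip growth of root hairs, were the 2 lower ones, at -1.06 ± 0.19 and -1.03 ± 0.12. They were also the 2 genes called higher in mock SPAAC than in mock CuAAC (6.47% of all genes), at 1.06 ± 0.18 and 1.04 ± 0.11. Their exons, 4501 and 4290 nt, are as long as those of the CESA genes. After depletion none of the CSL genes was called in SPAAC (7.37% of all genes higher, 9.66% lower), and 1 was called lower in CuAAC (8.24%). Of 8 genes for UDP-glucose supply none was called in either mock capture against mRNA-seq, and 1 was called higher in mock SPAAC than in mock CuAAC (6.47% of all genes). After depletion 1 of them was called higher in SPAAC (7.37% of all genes) and 2 in CuAAC (6.32%). Of 15 tested primary wall matrix genes, MUR1, an enzyme of GDP-fucose synthesis, was the 1 called in a mock capture against mRNA-seq. It was higher in mock CuAAC at 1.04 ± 0.09, beside 5.09% of all genes. GAUT7, a pectin synthesis protein, was the 1 called between the mock chemistries, higher in mock SPAAC at 1.26 ± 0.14, beside 6.47%. After depletion 1 was called higher and 2 lower in each chemistry. The shares of all genes were 7.37% and 9.66% in SPAAC, and 6.32% and 8.24% in CuAAC. QUA2 was the higher one, at 1.23 in SPAAC and 1.19 in CuAAC. EXPA1 (-1.49 and -1.21) and MUR1 (-1.02 and -1.04) were lower. QUA2 and EXPA1 were named after their values were seen. Of 15 tested genes of the secondary wall other than CESA genes, 1 was called higher in mock SPAAC against mRNA-seq (1.90% of all genes), none was called in mock CuAAC against mRNA-seq or between the mock chemistries, and after depletion 3 were called lower in SPAAC and 2 in CuAAC, none higher, beside 9.66% and 8.24% of all genes called lower. These were FLA11, IRX9 and, in SPAAC, IRX15, named after their values were seen. FLA11, IRX9 and IRX15 averaged 5.07, 1.65 and 0.832 CPM over the 15 libraries and have 908, 1479 and 1393 nt of exon. Nuclear coding genes under 1500 nt had a median log2 fold change for depletion of -0.56 in SPAAC and -0.50 in CuAAC.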

How the data were processed

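Poly(A) RNA of seedlings was sequenced in 15 libraries. Per the file headers, the deposited values are raw counts of reads for each gene, beside the gene's exon length. Tools listed in the submitters' processing notes are featureCounts 2.0.0, STAR 2.7.3a and DESeq2. Neither genome build nor strand setting is given in the sources used here. TAIR10.1 held 37065 (99.2%) of the identifiers, 99.5% of those with the same exon length, so sequence, coordinates and symbols come from that RefSeq reference.

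Counts were tested with edgeR 4.0.16 in R 4.3.3 (TMM, filterByExpr, robust quasi-likelihood fit of all 15 libraries by group), with 8 comparisons and the difference of the depletion effects. CPM is TMM-scaled, and SE is the log2 fold change divided by the root of F. The alternatives were library totals, no filter, DESeq2 1.42.0, a replicate block, exon length and GC offsets (mgcv 1.9.3), the compared groups alone and leaving out each library. The code was tested on simulated counts. Start windows, identity (Biopython 1.88) and motifs were computed from the genome.

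Replicates differed by more than sampling noise (chi-square per degree of freedom 3.83 to 15.7). The labels do not say that they are separate plants, so p-values measure the spread between samples, which may be technical. Replicate numbers pair the samples: across groups, 30 of 30 pairs of libraries with a shared number had deviations that correlated above 0.1 (0.185 to 0.754, median 0.546, against -0.13 for others, over 10920 genes).

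The members and lists were chosen with earlier results of these data known. Named list genes are up to 2 called members per list with the largest change at 10 CPM or more in the first 3 comparisons, and for each CESA gene the nuclear gene with the nearest pattern. Other list genes named are marked as such, beside CSI1 and CSI3 after depletion and CTL1 in mock CuAAC. From the accessory list 6 genes were left out because the reference does not give them the listed name.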

Additional observations from a re-analysis of the deposited data

How the results depend on the processing

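The count of CESA genes called kept within 1.5 times of the reported one in 102 alternative fits and moved further in 12. Of the single-gene values 821 kept direction and call, 24 lost a call, 15 gained one and 52 turned. With library totals it was 1 for mock SPAAC against mock mRNA-seq, 0 for mock CuAAC against mock mRNA-seq, 2 between the depleted chemistries, 7 for m7G-depleted SPAAC and 2 for m7G-depleted CuAAC against mock mRNA-seq. With exon length and GC offsets it was 0 in every comparison. Leaving out 1 library gave 2 to 5 for depletion in CuAAC and 2 to 4 for m7G-depleted SPAAC against mock mRNA-seq. With the replicate block the counts were 0, 3, 0, 4, 4, 1, 3, 0 and 0 in the order of the report's tests, the same as without it, and no CESA call changed. With library totals the summed primary wall CPM was 807 without capture, 1103 (SPAAC) and 583 (CuAAC) in the mock captures, and 2463 (SPAAC) and 1208 (CuAAC) in the depleted ones. The secondary wall sum was then 15.5 without capture, 28.6 in mock SPAAC, and 51.3 (SPAAC) and 27.7 (CuAAC) after depletion. Library totals change every gene by the same factor between a pair of libraries, and the cause of the changes with the offsets was not tested.

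Directions turned for these log2 fold changes. With library totals the values in mock SPAAC against mock mRNA-seq were 0.13 for CESA2, 0.079 for CESA3, 0.57 for CESA5, 0.28 for CESA6 and 0.60 for CESA7. In mock CuAAC against mock mRNA-seq they were 0.024 for CESA1, 0.11 for CESA4 and 0.17 for CESA8, and in m7G-depleted CuAAC against mock mRNA-seq 0.093 for CESA2, 0.16 for CESA3, 0.38 for CESA6 and 0.63 for CESA7. With the offsets the values in mock CuAAC against mock mRNA-seq were 0.26 for CESA1, 0.042 for CESA5, 0.22 for CESA4 and 0.15 for CESA8, and in mock SPAAC against mock CuAAC -0.052 for CESA1, -0.039 for CESA2, -0.14 for CESA5, -0.011 for CESA4 and -0.082 for CESA7. For depletion they were -0.11 for CESA2 and -0.054 for CESA4 in SPAAC, and -0.024 for CESA2 and -0.090 for CESA4 in CuAAC. Between the depleted chemistries they were -0.0025 for CESA1, -0.13 for CESA2, -0.080 for CESA5 and -0.0497 for CESA8. In m7G-depleted SPAAC against mock mRNA-seq they were -0.64 for CESA2, -0.37 for CESA3 and -0.0092 for CESA6. CESA7 in m7G-depleted CuAAC against mock mRNA-seq, reported at -0.01, was 0.0079 without the filter and 0.053 with the offsets, and ran from -0.055 to 0.093 without 1 library. In the difference of the depletion effects CESA2, reported at -0.01, was 0.0025 with library totals, 0.0047 without the filter and 3.8e-05 with the replicate block. CESA3 was -0.055 there with the offsets and -0.044 with the compared groups alone. Without 1 library CESA2 ran from -0.061 to 0.090, CESA3 from -0.023 to 0.061 and CESA8 from -0.35 to 0.23 in that difference.

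Counts over all genes moved by over 1.5 times too. With library totals they were 7254 against 1516 for mock SPAAC, 6608 against 3498 for mock CuAAC, 9623 against 5299 for m7G-depleted SPAAC and 6790 against 3855 for m7G-depleted CuAAC, each against mock mRNA-seq. With the offsets they were 882 against 1497 for mock SPAAC against mock CuAAC, 1586 against 3655 for depletion in SPAAC, 1465 against 3124 in CuAAC, 924 against 1758 between the depleted chemistries and 3165 against 5299 for m7G-depleted SPAAC against mock mRNA-seq. Depth limits the secondary wall genes most, with 12 to 61 counts per mock mRNA-seq library.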
